A study of Mus musculus with 3 samples.

Results

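Very long terminal exons, last exons of 3000 nt or longer, were examined in full-length transcript models of mouse CD4+ T cells. The multi-exon models of 3 long-read libraries were pooled, and each last acceptor, the first base of the last exon after its final splice junction, was kept if at least 1 model extended 3000 nt or more from it. Of 8719 last acceptors, 384 met this rule, a share of 4.40%, and they belonged to 349 genes, of which 338 were protein-coding. For 12 of the 384 no single gene of the annotation was assigned, among them 5 on patch sequences. The acceptors were selected on their measured last exon lengths, so these lengths are given as a description and carry no test. PacBio Iso-Seq was performed on CD4+ T cells in 3 states, with 1 library per state: naive, at 48 h of activation with 0 divisions (undivided), and at 48 h of activation with 2 divisions. All cells were WT and came from spleens and lymph nodes of male C57BL/6N mice aged 6 to 10 weeks, and activated cells had received anti-CD3 and anti-CD28 antibodies in culture and were sorted by dilution of the CellTrace Violet dye. A model is listed or not listed in a library with no read number attached, so abundance is unknown, and with no replicate each difference compares libraries and not conditions.

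The terminal exon of an mRNA usually holds the stop codon and the 3′ untranslated region (3′ UTR), where microRNAs and RNA-binding proteins attach and influence decay, translation and localization. Its end is set by cleavage and polyadenylation, which commonly follows a hexamer such as AATAAA a short distance upstream of the cut. A gene with several such sites in its last exon makes mRNAs with the same protein and UTRs of different length, and T cells are known to change this choice after stimulation. In long-read libraries primed with oligo(dT), a run of A inside a transcript can also be primed, so the genome sequence on both sides of each end is given here with the lengths.

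The ends of genes from the later results are shown first as the last 30 nt of the transcript, 5′ to 3′ on the transcript's strand in GRCm38, with the poly(A) hexamer AATAAA or ATTAAA in capitals. These genes were picked after their values had been seen.
Rlim, naive, 6878 nt, chrX:103957166-103957195, minus strand: atatagactatcAATAAAatgcatgaagtg
Lrrc8c, naive, 6518 nt, chr5:105612987-105613016, plus strand: acaaaaataAATAAAgtcatttttgtaaca
Rel, undivided, 6188 nt, chr11:23736853-23736882, minus strand: ttttgttgatgtAATAAAtagaccattttc
Ccdc50, both activated libraries, 5969 nt, chr16:27452187-27452216, plus strand: ctcttAATAAAgtcatccatttattaagtc
Cpsf6, naive, 4797 nt, chr10:117344671-117344700, minus strand: ttgtattgaaAATAAAaacaaagttttggt
Il4ra, naive, 3949 nt, chr7:125579443-125579472, plus strand: tcttcattctATTAAAattacttatcaagc
Il4ra, undivided, 2446 nt, chr7:125577940-125577969, plus strand: tttatgtcAATAAAgtctttatcttgtcag
Cd28, 2 divisions, 3709 nt, chr1:60773336-60773365, plus strand: gcAATAAAtatttattcattgactagatgg
Irf4, undivided, 3445 nt, chr13:30766942-30766971, plus strand: tttaaaatatttgataAATAAAggatttct
Il2ra, undivided, 3436 nt, chr2:11693164-11693193, plus strand: ataagctaaAATAAAccatttcttacccat
In each of these the hexamer starts between 14 nt (Irf4) and 28 nt (Cd28) before the end. Il4ra shows the variant ATTAAA at its long end and AATAAA at its shorter one.

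Other ends had no hexamer and were followed by A in the genome. The 20 nt that follow the end, outside the transcript, are shown for a second set, with each A in capitals, because an A-rich stretch there (at least 12 A of 20) is a site where priming inside a transcript can begin.
Tgoln1, 3221 nt, chr6:72608870-72608889, minus strand: AAAAAAAAAAAAAAAAAAAA
Mbnl1, 3002 nt, chr3:60629382-60629401, plus strand: AAAAAAAAAAAAAAAAAAAA
Rbm39, 6826 nt, chr2:156172395-156172414, minus strand: gAAAAAAAAAAAAAAAAAAA
Cblb, 5879 nt, chr16:52053078-52053097, plus strand: AAAAAAAAAAAAAAAAAAAg
Cytip, 5928 nt, chr2:58139259-58139278, minus strand: AAAAcAAAAAcAAAAAcAAA
Son, 5232 nt, chr16:91659843-91659862, plus strand: AAAAAAgcAAgAAAAAcAAA
Traf6, 4283 nt, chr2:101700946-101700965, plus strand: AAtAAAtAAAtAAAtAAAtA
The first pair is an unbroken run of 20 A, and Traf6 has 15 A in a repeat of 4 nt. For comparison, the 20 nt after the Rlim end hold 3 A and those after the Il2ra end hold 2 A. Some ends had neither feature. The Lrrc8c end at 2458 nt and the Pafah1b2 end at 3649 nt in naive T cells have no hexamer in their last 30 nt. The 20 nt after them hold 7 and 5 A.

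The naive library held the most of these exons. A last exon of 3000 nt or longer was listed for 247 of the 384 acceptors in naive T cells, for 169 in undivided T cells and for 120 after 2 divisions, and the corresponding models numbered 297, 190 and 124 in the same order. As a share of all last acceptors of a library this was 4.48% in naive T cells (95% exact Clopper-Pearson interval 3.95 to 5.06, n = 5517), 2.67% in undivided T cells (2.29 to 3.10, n = 6318) and 2.07% after 2 divisions (1.72 to 2.47, n = 5802). These intervals cover counting error alone. The library with the fewest models overall was thus the one with the most very long exons, since naive T cells had 9047 multi-exon models, undivided T cells 11716 and cells after 2 divisions 10253. The naive library was on another sequencing cell than both activated libraries, so naive against activated and 1 sequencing cell against the other cannot be told apart. Nor can fewer cells of a type be told apart from less RNA per cell in such bulk libraries.

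Shorter forms from the same acceptor were listed for 89 acceptors in the naive library, for 112 in undivided T cells and for 104 after 2 divisions. A long and a shorter form stood together in 70 acceptors in naive T cells, in 52 in undivided T cells and in 35 after 2 divisions, while the shorter form was alone in 19, 60 and 69 acceptors in the same order. No model at all was listed for 118, 155 and 195 acceptors. Thus an acceptor without its long form in an activated library was more often unlisted there than listed in a shorter form: of the 247 with a long form in naive T cells, the undivided library had a long form of 70, only a shorter form of 51 and no model of 126, and the 2-division library had 52, 52 and 143. Having no model there was thus the case for 51.0% of them in undivided T cells and 57.9% after 2 divisions, while over all 5517 naive acceptors it was 28.2% and 32.3% in the same order.

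**Figure D1:**
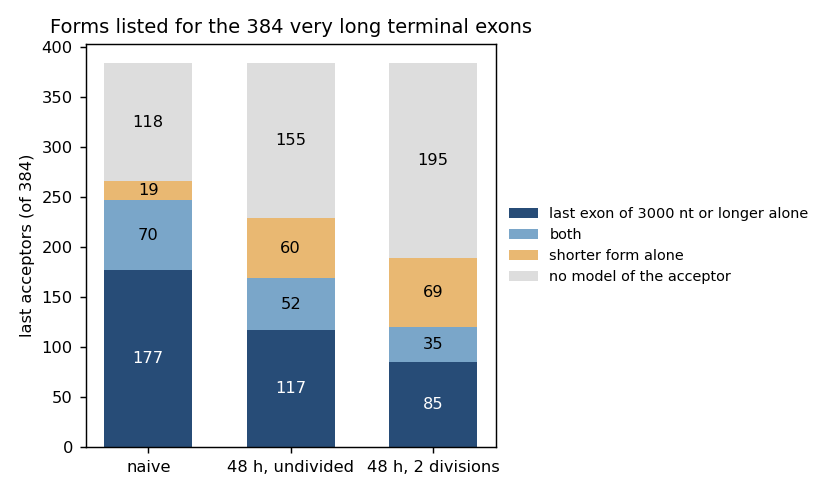
Number of the 384 last acceptors (vertical axis) with only a form of 3000 nt or longer, with both forms, with only a shorter form or with no model in each library (horizontal axis). A long form, alone or beside a shorter one, was listed for 247 acceptors in naive T cells, 169 in undivided T cells and 120 after 2 divisions.

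Across libraries, 33 acceptors had their long form in all 3 and 119 in at least 2. A long form was listed in the naive library alone for 158, in the undivided library alone for 69 and in the 2-division library alone for 38, while 30 had it in both activated libraries and not in naive T cells. Of the 158, 105 had no model in either activated library, which is 42.5% of the 247 with a long form in naive T cells, beside 22.7% of all naive acceptors. Where long ends were seen in 2 libraries, the closest 2 of them nearly always matched, with a median distance of 1 nt in each pair of libraries. The closest ends lay within 24 nt in 69 of 70 acceptors for undivided and naive T cells. This was 47 of 52 for 2 divisions and naive T cells and 60 of 63 for 2 divisions and undivided T cells. Other long ends of the same acceptor could still differ between libraries.

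Most lengths lay close to the limit. Per acceptor the longest form had a median of 3548.5 nt with quartiles at 3246.5 and 4073.25 nt, against a median of 890 nt over all 8719 acceptors. A length of at least 4000 nt was reached by 101 acceptors, at least 5000 nt by 28 and at least 6000 nt by 10. The median long last exon was 3516 nt in naive T cells, 3515 nt in undivided T cells and 3590 nt after 2 divisions. As these lengths are cut at 3000 nt, similar medians say little about last exon length in general. Over all multi-exon models the median last exon was 796 nt in naive T cells, 676 nt in undivided T cells and 635 nt after 2 divisions. A length of 5000 nt was reached by 7 acceptors in each activated library, against 22 in naive T cells. At the limit itself, Tollip and Dync1li2 had 3000 nt and Mkln1 3001 nt, while Zfp251 (2998 nt), Erlin2 (2996 nt) and Ankrd44 (2994 nt) fell just outside.

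Among the 12 longest, 4 were annotated last exons that covered no annotated intron and ended at an annotated 3′ end with a hexamer: those of Rlim, Lrrc8c, Rel and Ccdc50. Rlim, an X-linked E3 ubiquitin ligase, had a last exon of 6878 nt in naive T cells, no model in undivided T cells and 6876 nt after 2 divisions, and this exon holds 1553 nt of coding sequence and 5325 nt of 3′ UTR. Lrrc8c, a subunit of volume-regulated anion channels, had 2458 and 6518 nt in naive T cells, 2458 nt in undivided T cells and 2453 nt after 2 divisions. The 6518 nt form was thus confined to the naive library, and its shorter neighbour was in all 3. Rel, which encodes the NF-κB subunit c-Rel, had no model in naive T cells, 1052 and 6188 nt in undivided T cells and 1062 and 3417 nt after 2 divisions. The end at 3417 nt has no hexamer in its last 30 nt and 13 A in the 20 nt after it. Ccdc50, a ubiquitin-binding protein, had 7 ends in undivided T cells between 260 and 5969 nt and 5 ends after 2 divisions between 198 and 5969 nt, and no model in naive T cells. Only 20 nt of its exon are coding, and its 3′ UTR of 5949 nt was the longest among annotated last exons that cover no annotated intron.

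The other 8 of the 12 longest covered introns, had an acceptor that is not annotated for a last exon, or both. Ms4a6b, a membrane protein of the MS4A family, had the longest exon of the series, 8525 nt in naive T cells, which covers 6 annotated introns, and 3350 nt after 2 divisions. Rbm39, a splicing factor, had 682 and 6826 nt in naive T cells and 682 and 1900 nt in undivided T cells. After 2 divisions it had 682 nt. Its 6826 nt form covers 14 distinct annotated introns, the most of any. Annotated introns of different transcripts can overlap, so these need not be successive. H2-Eb1, an MHC class II chain of antigen-presenting cells, had 6608 nt in naive T cells only, across 5 annotated introns to an annotated end with AATAAA. Of 6 B cell marker genes, each activated library listed 1 and the naive library 4, and their part in this exon was not tested. The pseudogenes Gm8995 (up to 7426 nt) and Gm1966 (up to 6533 nt) had acceptors that are not annotated, and models of such near-identical copies are uncertain. Alg2, a mannosyltransferase of N-glycan assembly, had 6158 nt in naive T cells, 2585 and 2623 nt in undivided T cells and 2587 nt after 2 divisions. Ankrd10 had 6158 nt after 2 divisions and no model elsewhere, and Cytip, which binds cytohesins, had 5928 nt in naive T cells alone. Of these 8, 7 were followed by an A-rich stretch, the exception being H2-Eb1.

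**Figure D2:**
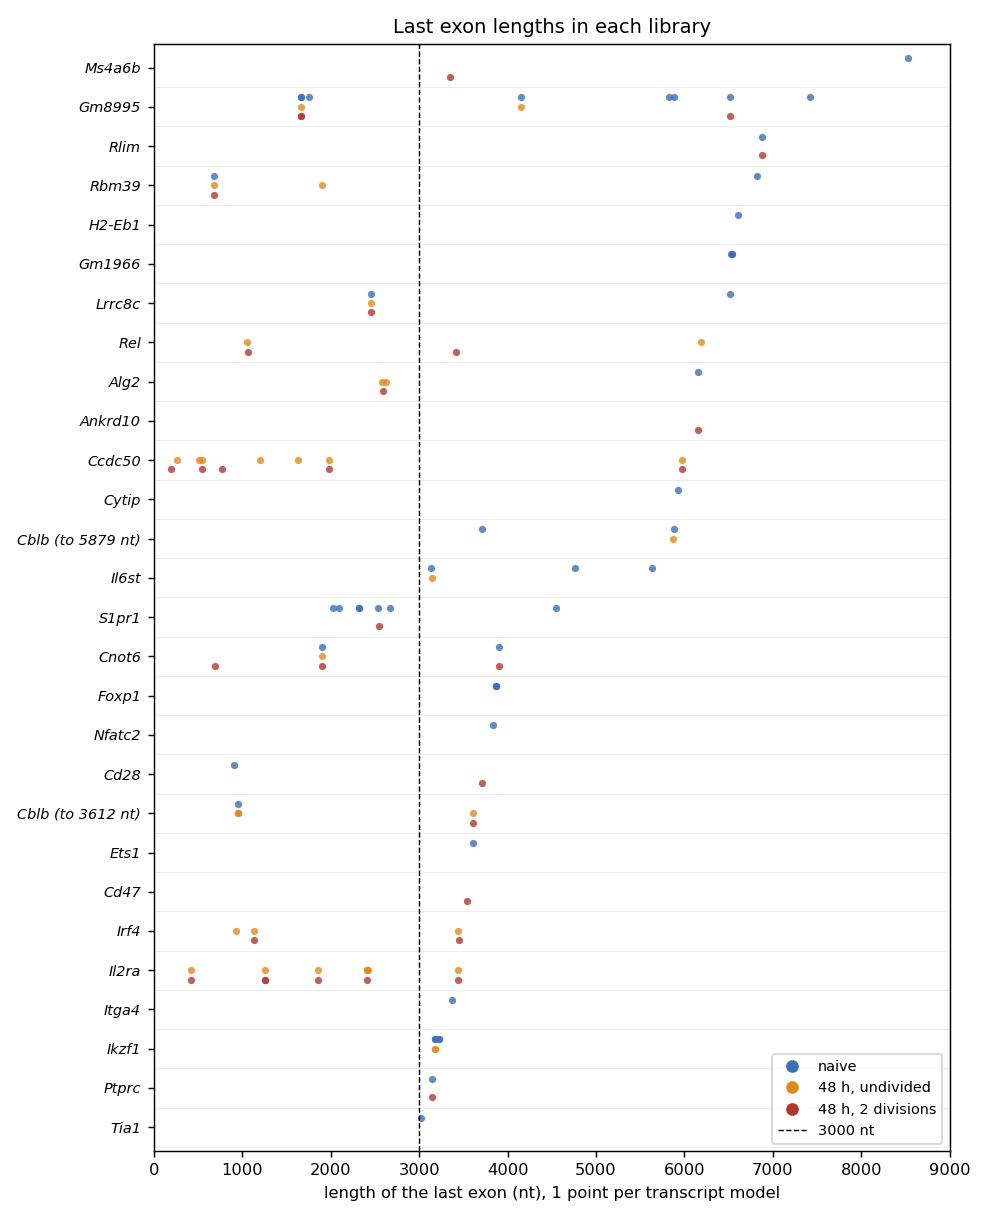
Length of the last exon in nt (horizontal axis) of each transcript model from the 12 longest acceptors and from most of those of the gene lists, 1 point per model, with the naive library above, the undivided library in the middle and the 2-division library below in each row. The dashed line marks 3000 nt. Rlim and Ccdc50 show the same long end in 2 libraries each, while for Lrrc8c the point at 6518 nt is in naive T cells alone.

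By position in the annotation, the 384 fell into groups with different ends. The largest, 184, were annotated last exons that ended within 50 nt of an annotated transcript end, and 85.3% of them (95% interval 79.4 to 90.1) had AATAAA or ATTAAA in the last 50 nt and 16.3% (11.3 to 22.5) were followed by an A-rich stretch. Annotated last exons that ended elsewhere inside the gene numbered 63, with 50.8% (37.9 to 63.6) holding the hexamer and 47.6% (34.9 to 60.6) A-rich. A further 16 ran past the annotated gene end, of which 5 had the hexamer and 10 were A-rich. Among these, Dbnl, an actin-binding adaptor, had 596 to 4886 nt in naive T cells, 596 to 1115 nt in undivided T cells and 596 to 1120 nt after 2 divisions, and its 4886 nt end lies 3783 nt past the annotated gene end, with AATAAA before it and 5 A in the 20 nt after it. It crosses an exon of Pgam2 on the opposite strand.

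In 23 cases the acceptor is annotated for an internal exon, so that the model stops inside the gene. Of these, 21 were A-rich (91.3%, 72.0 to 98.9) and 4 had a hexamer (17.4%, 4.95 to 38.8). Such a form was listed in 4 cases in each activated library, against 18 cases in naive T cells. Son, a splicing cofactor with a very large internal coding exon, had 5232 nt in all 3 libraries, the whole of it coding, and its end is followed by 16 A in 20. Cytip, Cd47, a surface protein that restrains phagocytosis, Trim30a and 1 of the acceptors of Ablim1, an actin-binding LIM protein, were others of this kind.

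A last exon that covered at least 1 whole annotated intron was found in 72 acceptors, and in 41 of them the covered intron was spliced in some other model of the series. The hexamer was present in 63.9% (51.7 to 74.9) and 36.1% (25.1 to 48.3) were A-rich. Introns were counted as distinct annotated introns, and those of different transcripts can overlap. One intron was covered in 38 and 2 or more in 34. After Rbm39 with 14, Tbc1d10c, a GTPase-activating protein, covered 11 introns in an exon of 4678 nt seen in undivided T cells, and H2-Q7, a class I gene, 8 introns in 3859 nt in naive T cells. Sh2d2a, the T cell adaptor TSAd, covered 6 in 5134 nt in naive T cells, all of which were spliced in other models. Ddx5, an RNA helicase, had 2 acceptors of this kind, at 4169 and 3663 nt. An exon of this group ended at an annotated end and without an A-rich stretch in 36 of 72.

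Taken over all members on the reference chromosomes, the hexamer was about as frequent as elsewhere and A-rich stretches were more frequent. The hexamer was found in 67.8% of 379 members (95% interval 62.8 to 72.5) and in 66.9% of 8238 other last acceptors (65.8 to 67.9), against 3.69% in members for a window of the same size placed 1000 nt before the end. The longest end was A-rich in 33.2% of members (28.5 to 38.2) and in 24.3% of the others (23.4 to 25.2). The share followed length below the limit as well, at 26.6% for last exons of 1000 nt to under 2000 nt and 29.2% for those of 2000 nt to under 3000 nt. An annotated end was reached by 61.2% of members (56.1 to 66.1) and 70.2% of the others (69.2 to 71.2). Within libraries, long models were A-rich in 38.1% (32.5 to 43.9) in naive T cells, 27.0% (20.8 to 33.9) in undivided T cells and 26.8% (19.2 to 35.6) after 2 divisions, and all other models in 23.2%, 19.2% and 19.8%. The naive library therefore had both the most very long exons and the highest A-rich share. Without any model followed by an A-rich stretch, a long form was listed for 162 acceptors in naive T cells, 126 in undivided T cells and 88 after 2 divisions, the same order as with them.

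**Figure D3:**
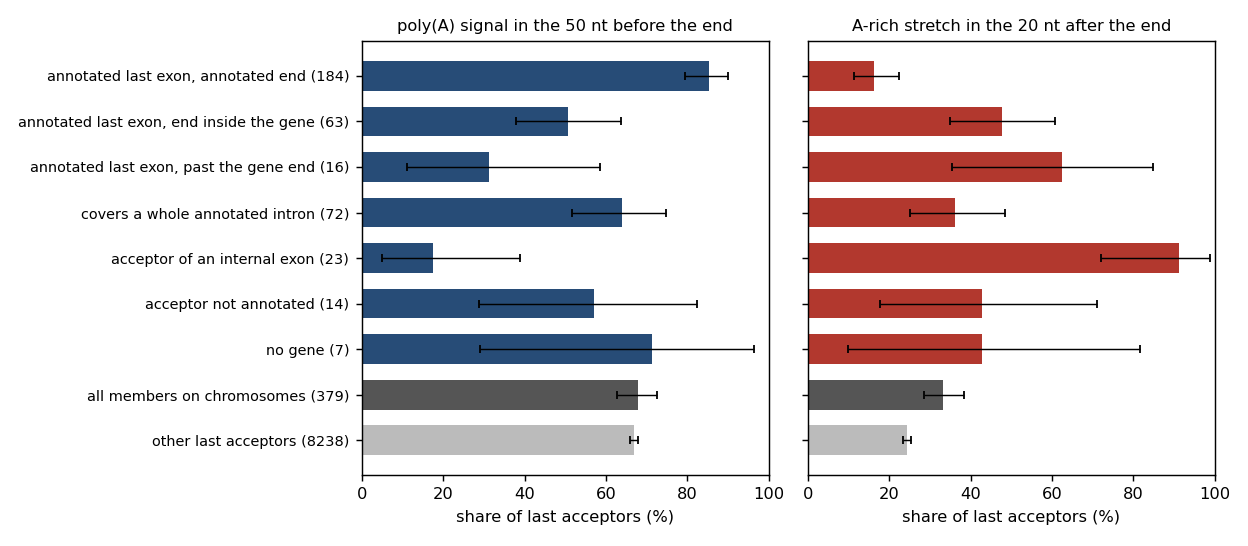
Share of last acceptors in percent (horizontal axes) with a poly(A) hexamer in the 50 nt before the longest end (left) and with an A-rich stretch in the 20 nt after it (right), for each group of members, with their number in parentheses, for all members and for the other last acceptors. Bars show exact 95% intervals for counting error. The 184 with an annotated end had the hexamer in 85.3%, and the 23 from internal acceptors were A-rich in 91.3%.

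Most of this length was untranslated. Of 261 members that are annotated last exons of coding genes, 245 held an annotated stop codon, and for these the median coding part was 260 nt and the median 3′ UTR after the last stop codon was 3101 nt. A UTR of at least 3000 nt was found in 141 and one of at least 4000 nt in 29. In 28 the coding part took more of the exon than the rest. Samd9l, an interferon-induced antiviral factor encoded almost entirely in 1 exon, had 5022 nt in all 3 libraries, of which 4740 nt were coding. Ints5, a subunit of the Integrator complex, had 2977 coding nt of 3127, and Gemin4, of the SMN complex, 3167 of 3352. These 28 coding-rich exons were set beside the 141 UTR-rich exons with a UTR of at least 3000 nt. Among listed acceptors, the long form was present in 13 of 15 coding-rich and 95 of 105 UTR-rich exons in naive T cells, in 16 of 18 coding-rich and 65 of 102 UTR-rich exons in undivided T cells and in 13 of 17 coding-rich and 52 of 82 UTR-rich exons after 2 divisions. A shorter form was listed for 3, 5 and 4 of the coding-rich exons and for 51, 65 and 56 of the UTR-rich ones in the same order of libraries. Since the rule used length, these counts are a description.

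**Figure D4:**
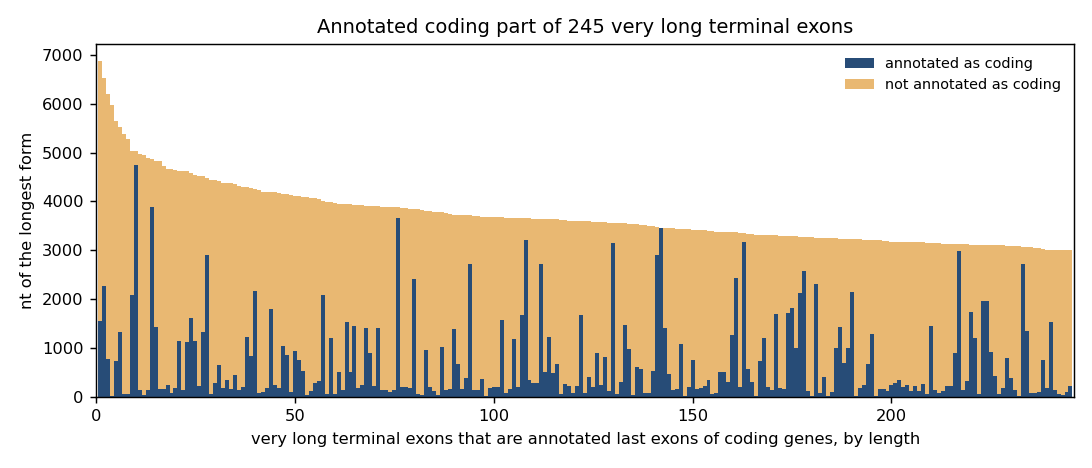
Length in nt (vertical axis) of the longest form of the 245 very long terminal exons with an annotated stop codon, ordered by length (horizontal axis), split into the part annotated as coding (dark) and the rest (light). In 28 the dark part is more of the bar than the light part, and the highest dark bar is Samd9l with 4740 coding nt.

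By gene symbol, zinc finger genes named Zfp or Zbtb held 20 of the 349 genes, 13.7% of the 146 such genes with a multi-exon model, against 5.28% over all 6609 genes. Among tripartite motif (Trim) genes, many of them ubiquitin ligases, 6 of 20 had a member, among solute carrier (Slc) genes 8 of 114, among GIMAP GTPases 2 of 9, and among cytosolic ribosomal protein genes 0 of 72. These families were chosen after the members had been seen. From its annotated last exon, Trim25, which ubiquitinates RIG-I, reached 4098, 4098 and 4099 nt in naive, undivided and 2-division cells. Shorter ends from that acceptor began at 1115 nt in undivided T cells and 1107 nt after 2 divisions. From another acceptor Trim25 had 4576 nt in undivided T cells alone, across 1 annotated intron.

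Some acceptors had many models. Ube2d3, a ubiquitin-conjugating enzyme, had 33 models, of which 1 of 3004 nt in naive T cells was long, and 864 nt was its most frequent length in each library. Mbnl1, a splicing regulator, showed the reverse: 11 of its 12 models in naive T cells and all 3 in undivided T cells ended at 3000 to 3002 nt, beside the run of 20 A shown above. Ablim1 had 14 models, with an end at 2415 nt in all 3 libraries and a long end at 4066 nt in naive T cells and 4067 nt after 2 divisions. Spn, the surface sialomucin CD43, ended at 3551 to 3665 nt in all of its 13 models. Of 1193 models from the 384 acceptors, 611 were long, and 163 acceptors rested on 1 model alone.

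Long and shorter forms shared their upstream splicing. Where a library listed both from 1 acceptor, the whole intron chain of a long and a shorter model was identical in 64 of 70 acceptors in naive T cells (91.4%, 82.3 to 96.8), 48 of 52 in undivided T cells (92.3%, 81.5 to 97.9) and 32 of 35 after 2 divisions (91.4%, 76.9 to 98.2). Over the 148 acceptors with both forms, the 162 long ends had a hexamer in 69.8% (62.1 to 76.7) and an annotated end in 63.6% (55.7 to 71.0), and the 264 shorter ends in 43.2% (37.1 to 49.4) and 30.7% (25.2 to 36.6). A-rich stretches followed 33.3% of the long ends (26.1 to 41.2) and 23.1% of the shorter ends (18.2 to 28.7). As ends of 1 gene are not independent, these intervals are too narrow.

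Only 6 acceptors showed a long and a shorter form in every library. Phf6, a chromatin-associated PHD finger protein, had 99 and 3037 nt in naive T cells, 98 and 3039 nt in undivided T cells and 99 and 3037 nt after 2 divisions. Tgoln1, a trans-Golgi network protein, had 617 and 3221 nt, then 601 and 3221 nt, then 616 and 3221 nt in the same order. Prps1l3, a phosphoribosyl pyrophosphate synthetase-like gene, had 1901 nt in each library beside 3804, 3811 and 3803 nt. In these 3 genes the pair of ends was thus the same in each library to within 24 nt. Pafah1b2, a subunit of a platelet-activating factor acetylhydrolase, ended at 2644 nt in each library and at 3649, 3648 and 3648 nt. Ptbp3, a splicing repressor, had ends at 4765 nt in all 3 libraries and at 4976 and 4978 nt in naive T cells only, and the end at 4765 nt is followed by 17 A in 20. Gm8995 was the remaining one.

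The comparison of undivided with naive T cells asks how these exons differ at 48 h before any division. The paper describes the undivided cells as a mixed population, in which some had not induced an early activation marker. It names this as a limit on separating activation from entry into the cell cycle. Of the 384, 138 acceptors had a model in both libraries, and the longest end was shorter in undivided T cells by over 100 nt in 56 (40.6%), longer in 14 (10.1%) and within 100 nt in 68. Over all 3961 acceptors in both libraries the shares were 6.21% shorter and 5.18% longer. As members must have a long end in at least 1 library and naive T cells supplied most of these, nothing is read from the contrast with that background. Of the 70 that moved, 80.0% were shorter (95% interval 68.7 to 88.6), and the median difference of these was -2388 nt, so that 53 of 56 lost over 1000 nt. Among the other acceptors, 190 were shorter and 191 longer.

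The largest losses in undivided T cells were led by Rbm39, described above. Ccdc93, of an endosomal sorting complex, had 402 nt in undivided T cells, against 401 and 5269 nt in naive T cells. Slc30a7, a zinc transporter of the Golgi, had 699, 700 and 767 nt in undivided T cells, against 699 and 5370 nt in naive T cells, where the long end is followed by 12 A in 20. In both genes the short end was common to the libraries and the long end dropped out. Cpsf6, a subunit of cleavage factor I, which acts in the choice of poly(A) sites, had 159 to 899 nt in undivided T cells, against 428 to 4797 nt in naive T cells. Gpalpp1 had 290 nt in undivided T cells, against 4511 nt in naive T cells, with no shared end. Il4ra, the interleukin-4 receptor alpha chain, had 2443 to 2446 nt in 5 models in undivided T cells, against 2442 to 2444 nt in 3 models and 3949 nt in 1 model in naive T cells, so the shorter end was common to both libraries.

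Gains in undivided T cells were fewer. Gpatch8 had 1387 and 4867 nt in undivided T cells, against 1387 nt in naive T cells. Of its long form 3895 nt are coding, and the end at 1387 nt thus lies inside the coding sequence. The 4867 nt end has no hexamer in the last 50 nt and is followed by an A-rich stretch. Sdf4, a calcium-binding protein of the Golgi, had 434 to 482 nt in 6 models and 3845 nt in 1 model in undivided T cells, against 435 nt in 2 models in naive T cells. Zbtb43, a zinc finger protein, had 1532 and 4830 nt in undivided T cells, against 1532 nt in naive T cells. Here too the short end was shared and a long end was added. Traf6, the ubiquitin ligase downstream of Toll-like and interleukin-1 receptors, had 4283 nt in undivided T cells, against 1962 nt in naive T cells, and its long end is one of the A-rich ends shown above. Cblb, Ppp6c, Imp4 and 2610005L07Rik completed the 8 largest gains, with 1966 to 2657 nt.

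After 2 divisions against naive T cells, a comparison that shares the naive library with the one above, 122 acceptors were in both, 59 shorter after 2 divisions (48.4%), 13 longer (10.7%) and 50 within 100 nt. Over all 3733 acceptors in both, 7.61% were shorter and 3.99% longer. Naive T cells supplied most long ends here too, so nothing is read from this contrast either. Of the 72 that moved, 81.9% (71.1 to 90.0) were shorter, with a median difference of -2335 nt, and among the other acceptors 62.3% of 361 (57.1 to 67.3). Grap2, the adaptor GADS of T cell receptor signaling, had 370 nt after 2 divisions, against 368, 2137 and 4384 nt in naive T cells. Creb1, a cAMP-responsive transcription factor, had 693 nt after 2 divisions, against 1044 and 4626 nt in naive T cells. The longest ends of Grap2 and Creb1 have no hexamer in the last 50 nt and are followed by an A-rich stretch. Rbm39, Slc30a7, Lrrc8c, Dbnl and Alg2 were again among the 8 largest losses. The gains were led by Sh2d2a, with 697 to 704 nt in 4 models and 3656 nt in 1 model after 2 divisions. In naive T cells it had 703 nt from the same acceptor. Its 3656 nt end likewise has no hexamer and is followed by an A-rich stretch. Aen, a nuclease induced by p53, had 1231 nt in 3 models and 4066 nt in 1 model after 2 divisions, against 1231 nt in all 3 models in naive T cells. Cd28, the costimulatory receptor, had 3709 nt after 2 divisions, against 901 nt in naive T cells, and the shorter naive end is followed by 18 A in 20 and has no hexamer.

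**Figure D5:**
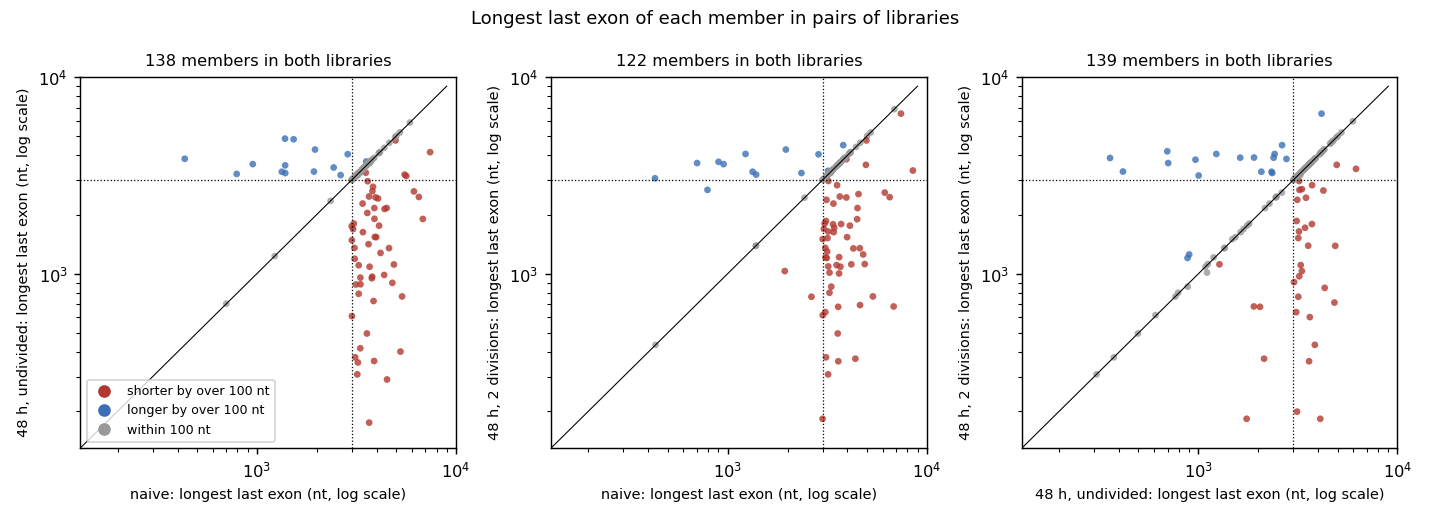
Longest last exon in nt on log scales of members with a model in both libraries: undivided against naive (left, 138), 2 divisions against naive (middle, 122) and 2 divisions against undivided (right, 139), 1 point per acceptor, with dotted lines at 3000 nt. Points below the diagonal, shorter by over 100 nt, number 56, 59 and 34 from left to right, and points above it 14, 13 and 19.

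Between the activated libraries, after 2 divisions against undivided T cells, both on 1 sequencing cell, 139 acceptors were shared, 34 were shorter after 2 divisions (24.5%), 19 longer (13.7%) and 86 within 100 nt. Over all 4653 acceptors in both, 6.02% were shorter and 3.18% longer. Of the 53 that moved, 64.2% (49.8 to 76.9) were shorter, against 65.6% of the other moved acceptors (60.6 to 70.4), and with only annotated ends the share was 30%, 3 of 10. Gfpt1, the first enzyme of the hexosamine pathway, had 183 nt after 2 divisions, against 163, 3315 and 4092 nt in undivided T cells. Nemp1, of the inner nuclear membrane, had 714 nt after 2 divisions, against 4821 nt in undivided T cells. The long end was missing after 2 divisions in both genes. Gpatch8, Ap3s2, Sdf4, Mtmr9 and Lman1 were also among the 8 largest losses, with differences of -2931 to -3480 nt. In the other direction, Kpna6, an importin, had 4196 nt after 2 divisions, against 698 nt in undivided T cells. Luc7l, a splicing factor of U1 snRNP, had 3879 nt after 2 divisions, against 344 and 360 nt in undivided T cells, and Nup50, a nucleoporin, 362 and 3310 nt after 2 divisions, against 361 and 418 nt in undivided T cells. Both had their long end in naive T cells too, at 3885 nt and 3310 nt, so that it was missing from the undivided library alone. Sh2d2a, Gbp9, Aen, Gm8995 and Vma21 were the other large gains, of 2272 to 2951 nt.

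Of the 99 acceptors listed in all 3 libraries, 35 were shorter in both activated libraries than in naive T cells. A further 6 were longer in both and 31 stayed within 100 nt throughout. Members were kept for a long end and naive T cells supplied most of these, so nothing is read from this difference. The same count was not made over all acceptors. The 6 longer in both were Cblb, Traf6, Ppp6c, Rbpj, Tnfsf8 and 2610005L07Rik. Ppp6c, the catalytic subunit of protein phosphatase 6, had a longest form of 3219 nt in undivided T cells and 2671 nt after 2 divisions, against 793 nt in naive T cells. Rbpj, the transcription factor of Notch signaling, had a longest form of 4056 and 4050 nt in undivided and 2-division cells, against 2863 nt in naive T cells. Tnfsf8, the CD30 ligand, had a longest form of 3253 and 3194 nt in undivided and 2-division cells, against 1391 nt in naive T cells, while from a second acceptor, of an internal exon, it had 1800 nt in both activated libraries, against 3073 nt in naive T cells. Tnfsf8 thus moved in both directions, and both of its long ends were A-rich. The 31 that stayed included Samd9l, Son, Rab8b, a GTPase of vesicle transport, with 4140 nt in each library, and Dcaf7, an adaptor of the DYRK1A kinase, with 4637, 4639 and 4639 nt in naive, undivided and 2-division cells.

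T cell transcription factors had a member in 6 of the 16 genes with a multi-exon model. Receptors and adhesion molecules, described below, also had 6, and over all 6609 genes the share was 5.28%. Nfatc2, activated by calcineurin, had 3837 nt, Ets1 3604 nt and Foxp1, which keeps T cells quiescent, 3874 nt in 3 models, all in naive T cells, and none of the 3 acceptors had a model in either activated library. Ikzf1, or Ikaros, had 3178 to 3228 nt in naive T cells, 3174 and 3180 nt in undivided T cells and no model after 2 divisions. Rel and Irf4 were listed in the activated libraries alone. Irf4, an activation-induced factor, had 928, 1128 and 3445 nt in undivided T cells and 1129 and 3447 nt after 2 divisions. The long ends of Nfatc2, Ets1 and Irf4 had a hexamer and an annotated end, while that of Foxp1 lies far inside the gene with an A-rich stretch after it.

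Of T cell receptor signaling genes, 3 of 24 had a member. Ptprc, which encodes CD45, had 3150 nt in naive T cells and after 2 divisions from an early acceptor, followed by an A-rich stretch. Cd28 is described above.

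Among receptors and adhesion molecules, 6 of 20 had a member. Il2ra, the high-affinity interleukin-2 receptor chain, had no model in naive T cells, 422 to 3436 nt in 7 models in undivided T cells and 421 to 3435 nt in 6 models after 2 divisions, and the ends near 421, 1261, 1855, 2415 and 3436 nt were in both. Il6st, the gp130 receptor chain, had 3137, 4760 and 5637 nt in naive T cells, 3143 nt in undivided T cells and no model after 2 divisions. S1pr1, the receptor for exit from lymph nodes, had 7 models of 2028 to 4546 nt in naive T cells, none in undivided T cells and 2542 nt after 2 divisions. Its 4546 nt end lies 1864 nt past the annotated gene end with 16 A in the 20 nt after it. Itga4, an integrin chain, had 3377 nt in naive T cells alone, and Cd47 3536 nt after 2 divisions alone, both A-rich.

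A list of 20 ubiquitin ligases, which leaves out other ligases among the members such as Rlim, Traf6 and Trim25, had 11 genes with a multi-exon model, and 1 had a member. This was Cblb, a brake on T cell activation, with 2 acceptors that differed in direction. From its annotated last exon it had 952, 953, 953 and 3612 nt in undivided T cells and 3609 nt after 2 divisions, against 955 nt in naive T cells. The 3612 nt end is annotated and has 5 A in the 20 nt after it, although none of the AATAAA and ATTAAA hexamers. From an early acceptor, where an annotated short transcript ends, it had 3709 and 5879 nt in naive T cells, 5875 nt in undivided T cells and no model after 2 divisions, with 19 A after the longest end. Of genes for 3′ UTR binding and mRNA decay, 2 of 13 had a member. Cnot6, a deadenylase subunit, had 1903 and 3900 nt in naive T cells, 1903 nt in undivided T cells and 693, 1903 and 3900 nt after 2 divisions, and Tia1, an AU-rich element binding protein, had 3018 nt in naive T cells across 4 annotated introns. The microRNA pathway (8 genes with a model) and chromatin regulators (12 genes) had none.

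The last 1000 nt before annotated ends were searched on the transcript strand for sequence elements, in 232 members and 2360 other last exons of at least 1000 nt. The median GC content was 42.6% in members and 45.3% in the others. ATTTA, the core of AU-rich elements, was found in 76.3% of members (70.3 to 81.6) and 72.3% of the others (70.4 to 74.1), and the longer TATTTAT in 22.8% of members and 23.2% of the others. The Pumilio motif TGTANATA was in 23.3% of members (18 to 29.3) and 18.3% of the others (16.8 to 19.9). Matches to the seeds of microRNAs expressed in T cells, from RefSeq sequences for GRCm38.p6, were found in 9.48% of members and 7.67% of the others for let-7a (CTACCTC) and in 8.62% of members and 9.70% of the others for miR-17 (GCACTTT). For miR-155 (AGCATTA) they were in 7.33% of members and 5.38% of the others, and for miR-181a (TGAATGT) in 17.7% of members and 13.8% of the others. The match to miR-142a-3p (ACACTAC) was in 1.29% of members (0.267 to 3.73) and 3.90% of the others (3.15 to 4.76). For each of these elements the intervals of members and of the other exons overlapped, and a match is no evidence of a site.

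The models around these exons had fewer upstream exons in the median than the rest. The longest model of a member had a median of 5 exons and 625 nt upstream of the last exon. The other acceptors had 8 exons and 1107 nt. These medians followed length below the limit as well. They were 6 exons and 808 nt for last exons of 1000 nt to under 2000 nt. For those of 2000 nt to under 3000 nt they were 5 exons and 655.5 nt, close to the members. The start of a member's longest model lay within 100 nt of an annotated start in 90.0% (86.5 to 92.8). For the other acceptors this was 86.5% (85.7 to 87.2), so the long last exons were not accompanied by a lower share of annotated starts. The full long models had a median of 4394 nt in naive T cells, 4301 nt in undivided T cells and 4301 nt after 2 divisions, while all multi-exon models had 2268, 2062 and 1973 nt. Models of at least 5000 nt numbered 259, 173 and 124 in the same order. In 10 members another coding gene lies in the exon on the same strand, and in 21 an exon of a coding gene on the opposite strand. The labelled cell type was checked by its markers: models of 8, 7 and 7 of 8 CD4 T cell genes were listed in naive, undivided and 2-division cells. Of markers of other cells, 4, 1 and 1 of 6 B cell genes, 1, 0 and 0 of 6 myeloid genes, 2, 1 and 0 of 4 CD8 T and NK cell genes and 2, 0 and 0 of 5 erythroid and platelet genes were listed in the same order, the most in the naive library each time. Their part in the number of very long exons was not tested.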

How the data were processed

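In the authors' processing, as the methods describe it, ccs gave the consensus reads and lima took off the primers. Reads without a poly(A) tail were dropped and the others clustered with isoseq3, aligned with pbmm2, collapsed and passed through SQANTI3. The submitters' processing notes name minimap2 and Subread. The deposited tables give the exon positions of each isoform on GRCm38 (mm10) and no counts, so the number of models, 10527 in naive T cells, 12602 in undivided T cells and 11109 after 2 divisions, stands in for depth. The poly(A) tail and read length limit what can be listed, and a very long exon needs a read that spans it.

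Multi-exon models were grouped by chromosome, strand and last acceptor. A shorter form has a last exon under 3000 nt, and longest ends were compared at 100 nt. Genes, coding parts and introns come from GENCODE M21 (the methods name release v25), and models on patch sequences were left out where sequence or annotation was needed. Shares have exact Clopper-Pearson intervals at 95%. With 1 library per condition no test was made. The counting code was tested on simulated models. The scripts ran in Python 3.11.15 with numpy 2.4.6, scipy 1.17.1 for intervals and matplotlib 3.10.9 for plots.

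The members, gene lists and markers were chosen with earlier results of these data known. Named genes are the 12 members with the longest exon, the 12 with the most models, the 8 largest losses and 8 largest gains per pair of libraries, those with a long and a shorter form in all 3 libraries, those of the gene lists, and 3 on each side of the limit. A few genes under this rule are not reported here. Other genes, and the grouping by position in the annotation, were chosen after their values were seen. Alternatives were other length limits, a difference of over 300 nt, mean in place of longest exon, shorter forms at least 500 nt apart, merged acceptors, and models without A-rich stretches, without covered introns or with annotated ends only.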

Additional observations from a re-analysis of the deposited data

Results flagged for a closer look

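Single-exon models were not part of the comparisons, because they have no acceptor. Those of 3000 nt or longer numbered 203 of 1480 single-exon models in naive T cells, 96 of 886 in undivided T cells and 61 of 856 after 2 divisions, and drew attention as a signal outside the main measurement with no control to set it against. Of those on reference chromosomes, an A-rich stretch followed 146 of 200 in naive T cells, 52 of 93 in undivided T cells and 34 of 59 after 2 divisions. They overlapped a very long terminal exon in 14, 9 and 5 cases in the same order of libraries.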

How the results depend on the processing

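No paired analysis was possible because each condition has 1 library, and for the same reason no library was left out in turn. Of 69 alternative values, 43 stayed near those reported, which means within 1.5 times for a count and inside the reported interval for a share. At a limit of 2500 nt there were 718 acceptors, with a long form in 461 in naive T cells, 344 in undivided T cells and 268 after 2 divisions and a shorter form in 143, 207 and 184. At 4000 nt there were 101, with a long form in 59, 45 and 28 and a shorter form in 31, 34 and 31. Without A-rich ends, 162 had a long form in naive T cells, and 49, 73 and 60 had a shorter form. With annotated ends only there were 236, with a long form in 148, 110 and 78 and a shorter form in 26, 31 and 24. In that setting alone the share of moved acceptors shorter after 2 divisions than in undivided T cells changed side, to 30% (3 of 10) from the reported 64.2%, and the cause was not tested. The order of the libraries in long forms was the same in these settings, while that in shorter forms was not: the naive library had the fewest except with annotated ends only and, by a tie, at 4000 nt. In each setting most moved acceptors were shorter in both activated libraries than in naive T cells. Each setting selects on long ends, of which the naive library had the most, so nothing is read from this agreement. Depth limits all counts, since a form that is not listed may have been present.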

Other observations

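Some pairs of these acceptors lay within 10 nt of each other, among them pairs 3 nt apart in Trim32 and in Tmem229b. The pair in Trim32 had last exons of 3108 and 3106 nt, the first listed in undivided cells and the second after 2 divisions, and counts as 2 acceptors although both reach nearly the same end. Among the 7 acceptors on reference chromosomes to which no single gene was assigned, the longest exon had 4461 nt.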
